A study of Homo sapiens with 12 samples.

Results

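The transcripts described here belong to 10 enzymes that make serine and pass its carbon through folate, out of 58735 genes in the deposited table. They are PHGDH, PSAT1 and PSPH of serine synthesis, ASNS of asparagine synthesis, SHMT2, MTHFD2, MTHFD1L and ALDH1L2 of the mitochondrial folate pathway, and SHMT1 and MTHFD1 of the cytosolic one. They were selected on their names, and these names were proposed with earlier FPKM results over all 4 groups of the same samples in view. The changes below, with their adjusted p-values, therefore describe where each enzyme stood among all genes and are no independent evidence about the group. All 10 names were found in the table as single rows.

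Serine is made from the glycolytic intermediate 3-phosphoglycerate by PHGDH, PSAT1 and PSPH acting in turn. SHMT1 in the cytosol and SHMT2 in mitochondria split serine into glycine and a one-carbon unit that is carried by folate. That unit is used to build purines and thymidylate and to renew methionine. In tumour cells the genes for serine synthesis and mitochondrial folate enzymes are known targets of ATF4, the factor translated when amino acids run short or proteins misfold.

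RNA of 12 samples was sequenced from cells labelled as 2 human liver tumour lines, with 3 samples per group. The groups were HepG2-labelled cells given geniposide for 48 h, HepG2-labelled cells left without it, Huh7-labelled cells given geniposide for 48 h, and Huh7-labelled cells left without it. HepG2 is a hepatoblastoma line and Huh7 a hepatocellular carcinoma line, and geniposide is an iridoid glycoside of gardenia fruit. The title asks about DUOX1 and ferroptosis, a form of death in which iron drives the oxidation of membrane lipids. The labels give no dose, no vehicle and no statement of whether the samples of a group were separate cultures, so the spread behind the p-values may be only technical.

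Each library held between 15056655 and 17211659 fragments, recovered from the FPKM steps (FPKM counts fragments relative to gene length and library size). Markers of the labelled tissue were close to absent. All 9 hepatocyte markers had group means of at most 0.252 FPKM, and ALB, APOB, TTR and AFP of at most 0.0243 FPKM. The fibroblast marker DCN averaged 10.4 FPKM in treated and 6.32 FPKM in untreated HepG2-labelled cells, while it was at most 0.00583 FPKM in Huh7-labelled cells, and its part in the results was not tested. COL1A1 averaged 3.42 to 11.9 FPKM over the groups, COL1A2 was at 0 throughout, the endothelial markers PECAM1, CDH5 and VWF averaged at most 0.959 FPKM, and the leukocyte markers PTPRC and CD3E at most 0.0202 FPKM. The lines are therefore called by their labels only. Replicate 3 of the treated Huh7-labelled libraries stood apart from its group, with a chi-square per degree of freedom of 38.9 and 40 against the other 2 treated libraries, which differed from each other by 2.87. Results in the Huh7-labelled cells are given with and without that library where it matters.

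With geniposide more of the enzymes fell than rose in HepG2-labelled cells, and more rose than fell in Huh7-labelled cells. PHGDH, PSAT1 and PSPH were called in opposite directions, and SHMT2 rose in both lines. The remaining enzymes were called in 1 line only. In treated HepG2-labelled cells 6 of the 10 enzymes fell and 1 rose, against 21.5% of all tested genes lower and 21% higher, 42.5% in either direction. In treated Huh7-labelled cells 7 rose and none fell, against 16.4% of tested genes higher and 18.1% lower, 34.5% in either direction. The count of falls there was also 0 at an unadjusted limma p under 0.05 and with limma's voom on recovered fragments. The median change of the enzymes was -0.42 in HepG2-labelled and 0.57 in Huh7-labelled cells, on the log2(FPKM + 1) scale, and the median over the 15518 tested genes was 0.00 in each line. The deposited values are in effect relative to the median gene, so that 0.00 is no comparison for the enzymes. The contrasts were among those known when the names were chosen, so nothing is read from these shares. A change was called at a limma adjusted p-value under 0.05, with Benjamini-Hochberg adjustment over all tested genes. Bulk RNA cannot tell fewer cells with a transcript from less transcript per cell.

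**Figure D1:**
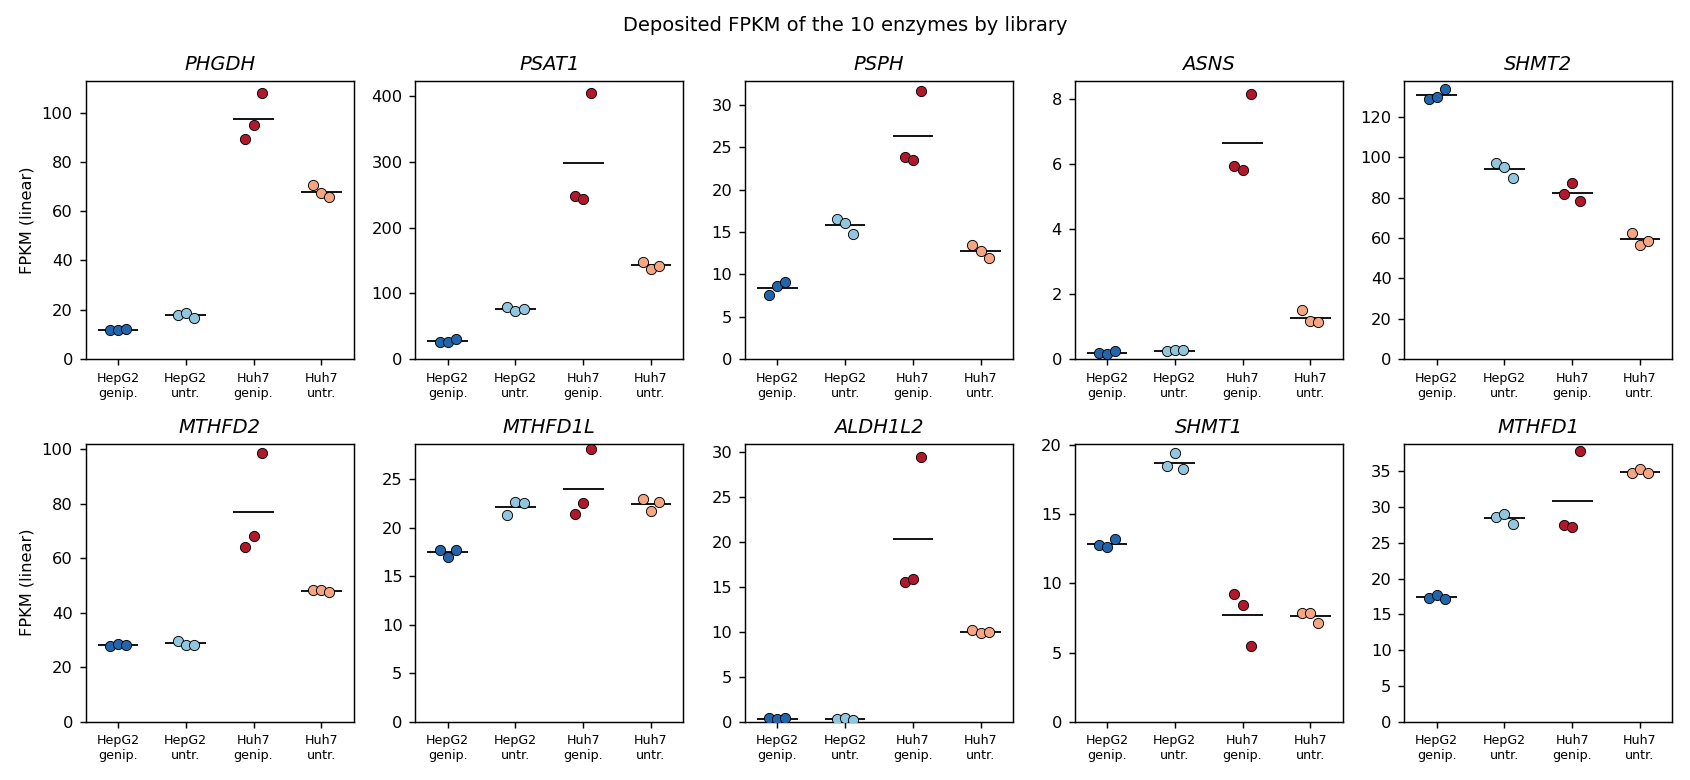
Deposited FPKM (linear axis from 0) of the 10 enzymes in every library, with geniposide-treated (genip.) left of untreated (untr.) samples in the HepG2-labelled and then the Huh7-labelled line; points are libraries and bars group means (n = 3). PSAT1 averaged 27.6 FPKM in treated and 76.0 FPKM in untreated HepG2-labelled cells, and 298 FPKM in treated and 142 FPKM in untreated Huh7-labelled cells.

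The serine synthesis enzymes fell in HepG2-labelled and rose in Huh7-labelled cells. PHGDH (chr1:119648411-119744226, plus strand, hg38) oxidises 3-phosphoglycerate and commits it to serine. It had 11.9, 11.6 and 12.3 FPKM in treated HepG2-labelled cells, against 17.8, 18.5 and 16.7 FPKM in untreated HepG2-labelled cells. In Huh7-labelled cells it had 89.2, 94.8 and 108 FPKM with geniposide, against 70.6, 67.5 and 65.6 FPKM without. The groups did not overlap in either line, and every treated library was low in one line and high in the other. The change was -0.53 ± 0.07 (SE) on the log2(FPKM + 1) scale in HepG2-labelled cells (limma adjusted p = 0.000145) and 0.51 ± 0.07 in Huh7-labelled cells (limma adjusted p = 0.000344).

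PSAT1 (chr9:78297143-78330093, plus strand) transfers an amino group from glutamate to make phosphoserine. It was measured at 26.0, 26.2 and 30.5 FPKM in treated and at 78.4, 73.7 and 75.8 FPKM in untreated HepG2-labelled cells. Treated Huh7-labelled cells had 248, 243 and 404 FPKM, against 148, 137 and 142 FPKM in untreated ones. The treated mean was 0.363 times the untreated mean in HepG2-labelled cells and 2.10 times it in Huh7-labelled cells. PSAT1 fell by 1.43 ± 0.16 (limma adjusted p = 5.02e-05) in the HepG2-labelled line and rose by 1.02 ± 0.16 (limma adjusted p = 0.000756) in the Huh7-labelled line. Treated Huh7-labelled library 3 was far above the other 2, and without it the rise was 0.78 (limma adjusted p = 1.31e-05).

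PSPH (chr7:56011051-56051604, minus strand) removes the phosphate and releases serine. Treated HepG2-labelled cells had 7.53, 8.56 and 9.14 FPKM, against 16.5, 16.0 and 14.8 FPKM in untreated ones. Treated Huh7-labelled cells had 23.8, 23.5 and 31.6 FPKM, against 13.4, 12.8 and 11.9 FPKM in untreated ones. The groups were apart in both lines, with a change of -0.83 ± 0.11 (limma adjusted p = 0.000132) in HepG2-labelled and 0.98 ± 0.11 (limma adjusted p = 9.24e-05) in Huh7-labelled cells. PSPHP1, annotated as an unprocessed pseudogene of PSPH, had 40.9, 46.0 and 43.1 FPKM in treated and 42.0, 34.6 and 34.6 FPKM in untreated HepG2-labelled cells and 0 in all Huh7-labelled libraries. Its fragments came to 10.7% of those of PSPH over all libraries, but all of them lay in HepG2-labelled libraries. Treated HepG2-labelled libraries had 156 to 176 of them, against 304 to 395 fragments of PSPH. Untreated ones had 130 to 163, against 588 to 678 of PSPH. With PSPHP1 fragments added to PSPH, an alternative chosen after the values were seen, the HepG2-labelled change was -0.59 (limma adjusted p = 0.00119). The difference between the lines was then -1.57 (limma adjusted p = 7.46e-05).

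ASNS (chr7:97852118-97872542, minus strand) makes asparagine from aspartate and glutamine and is a classical target of ATF4. It had the largest rise among the 10 enzymes in Huh7-labelled cells, with 5.93, 5.83 and 8.16 FPKM in treated against 1.5, 1.16 and 1.15 FPKM in untreated libraries, 5.22 times the untreated mean. The rise was 1.74 ± 0.11 (limma adjusted p = 3.77e-06), and 1.60 without treated library 3. In HepG2-labelled cells it had 0.200, 0.158 and 0.244 FPKM with geniposide, against 0.241, 0.266 and 0.281 FPKM without. Those values rest on 10 to 17 fragments per treated and 16 to 18 fragments per untreated library, and no change was detectable at this depth (-0.07 ± 0.11, limma adjusted p = 0.663). ASNS passed the filter on low values only through the Huh7-labelled libraries.

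ASNS has an annotated pseudogene copy, so its own fragments are uncertain. The transcribed pseudogene ASNSP1 had 7.49, 8.09 and 16.8 FPKM in treated and 1.65, 1.80 and 1.3 FPKM in untreated Huh7-labelled cells, and 0 in all HepG2-labelled libraries. Its fragments came to 95.5% of those of ASNS over all libraries. With both summed, an alternative chosen after the values were seen, the Huh7-labelled rise was 2.10 (limma adjusted p = 1.41e-05). ASNS also shares 1985 of its 4455 exon bases with AC079781.5 on the same strand, which had at most 0.207 FPKM.

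SHMT2 was the enzyme that rose in both lines. It is the mitochondrial serine hydroxymethyltransferase (chr12:57229327-57234935, plus strand), which charges mitochondrial folate with the carbon of serine. Treated HepG2-labelled cells had 129, 130 and 134 FPKM, against 97.3, 95.2 and 89.9 FPKM in untreated ones. Treated Huh7-labelled cells had 81.8, 87.3 and 78.3 FPKM, against 62.6, 56.7 and 58.7 FPKM in untreated ones. All treated libraries were above all untreated ones of their line. The treated mean was 1.39 times the untreated mean in both, a change of 0.47 ± 0.06 in HepG2-labelled (limma adjusted p = 7.42e-05) and 0.47 ± 0.06 in Huh7-labelled cells (limma adjusted p = 0.000149). On the opposite strand SHMT2 shares 33 of its 4838 exon bases with NDUFA4L2, which reached 170 FPKM, and 427 with AC137834.2, which had at most 0.376 FPKM. The library protocol does not keep strand, so fragments in shared bases could belong to either gene, here and for the overlaps given below.

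MTHFD2 (chr2:74198562-74217565, plus strand) oxidises methylene-folate in mitochondria and is low in most adult tissues but high in tumours. It had 64.0, 68.0 and 98.5 FPKM in treated Huh7-labelled cells, against 48.2, 48.5 and 47.7 FPKM in untreated ones, a rise of 0.64 ± 0.12 (limma adjusted p = 0.00266). Treated library 3 was high, and the rise was 0.45 without it. In HepG2-labelled cells it had 27.8, 28.6 and 28.2 FPKM with geniposide, against 29.6, 28.3 and 28.3 FPKM without. These groups overlapped, and the change was -0.02 with a 95% confidence interval of -0.30 to 0.25. SLC4A5 on the opposite strand covers 1324 of the 4870 exon bases of MTHFD2 and had at most 0.149 FPKM.

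MTHFD1L (chr6:150865549-151101887, plus strand) releases formate from mitochondrial folate. It fell in HepG2-labelled cells, with 17.7, 17.0 and 17.7 FPKM in treated against 21.3, 22.6 and 22.5 FPKM in untreated libraries (-0.32 ± 0.08, limma adjusted p = 0.00941). In Huh7-labelled cells it had 21.4, 22.5 and 28.1 FPKM with geniposide, against 23.0, 21.7 and 22.6 FPKM without. The Huh7-labelled groups overlapped, and the change was 0.08 ± 0.08 (limma adjusted p = 0.482), or -0.03 without treated library 3.

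ALDH1L2 (chr12:105019784-105084577, minus strand) burns the mitochondrial one-carbon unit to carbon dioxide and yields NADPH. In Huh7-labelled cells it had 15.6, 15.9 and 29.5 FPKM with geniposide, against 10.2, 9.87 and 10 FPKM without. The treated values were all higher, by 0.89 ± 0.19 (limma adjusted p = 0.00415), and by 0.61 without the high library 3. In HepG2-labelled cells it was near 0, at 0.402, 0.257 and 0.360 FPKM in treated and 0.277, 0.372 and 0.220 FPKM in untreated libraries, on 27 to 50 fragments each, and those groups overlapped. It passed the filter on low values only through the Huh7-labelled libraries, and C12orf45 on the opposite strand, at up to 1.20 FPKM, overlaps 145 of its 8507 exon bases. When each line was fitted alone, the Huh7-labelled rises of ALDH1L2 and MTHFD2 just missed the threshold, with limma adjusted p-values of 0.0598 and 0.0505.

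The cytosolic enzymes fell in HepG2-labelled cells. SHMT1 (chr17:18327860-18363563, minus strand), the cytosolic counterpart of SHMT2, had 12.8, 12.6 and 13.2 FPKM in treated HepG2-labelled cells, against 18.5, 19.4 and 18.3 FPKM in untreated ones (-0.51 ± 0.13, limma adjusted p = 0.0109). Treated Huh7-labelled cells had 9.25, 8.44 and 5.47 FPKM, against 7.86, 7.83 and 7.17 FPKM in untreated ones. Treated Huh7-labelled library 3 lay below all untreated ones and the other 2 above them. The change was -0.01 ± 0.13 with all libraries (limma adjusted p = 0.977) and 0.19 without treated library 3 (limma adjusted p = 0.0129). A rise of SHMT1 was called there only when that library was left out, and its change was 0.01 without untreated Huh7-labelled library 1 or 2. SMCR8 on the opposite strand, at up to 11.4 FPKM, overlaps 196 of its 7281 exon bases.

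MTHFD1 (chr14:64388031-64463457, plus strand) carries several steps of cytosolic folate conversion in a single protein. It had 17.3, 17.7 and 17.2 FPKM in treated HepG2-labelled cells, against 28.6, 29 and 27.6 FPKM in untreated ones. All treated values were below all untreated ones, and the fall of 0.67 ± 0.10 (limma adjusted p = 0.000324) came after those of PSAT1 and PSPH in size. In Huh7-labelled cells it had 27.5, 27.2 and 37.8 FPKM with geniposide, against 34.7, 35.3 and 34.8 FPKM without. The first 2 treated libraries were below and library 3 above the untreated ones, and the change of -0.19 ± 0.10 (limma adjusted p = 0.172) became -0.34 without library 3 (limma adjusted p = 1.79e-05). On the opposite strand ZBTB25 (up to 7.83 FPKM), AL122035.1 (up to 9.82 FPKM) and AL122035.2 (up to 2.64 FPKM) overlap 178, 101 and 756 of the 9377 exon bases of MTHFD1.

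**Figure D2:**
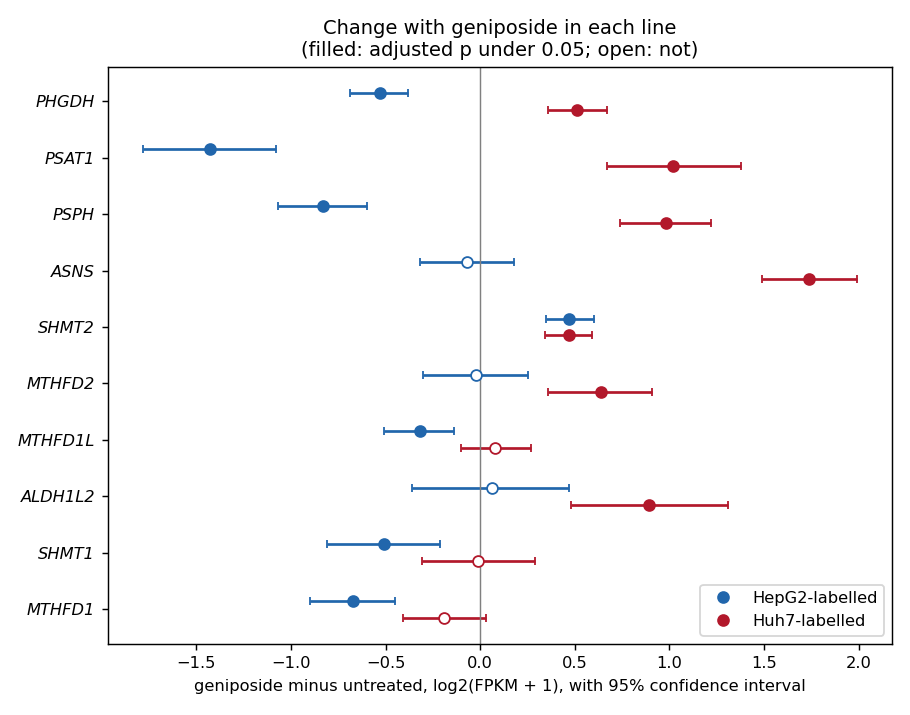
Change with geniposide (treated minus untreated, log2(FPKM + 1)) of each enzyme in HepG2-labelled and Huh7-labelled cells, with 95% confidence intervals from limma (n = 3 per group); filled points had an adjusted p under 0.05. PHGDH, PSAT1 and PSPH lie on opposite sides of 0 in the lines, while SHMT2 lies at 0.47 in both.

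The effects themselves were compared between the lines, as the HepG2-labelled change minus the Huh7-labelled change. Of the 10 enzymes, 8 had a lower effect in HepG2-labelled cells and none a higher one, against 13.7% of tested genes lower, 14.1% higher and 27.8% in either direction. The count of higher effects was also 0 at an unadjusted limma p under 0.05 and with voom. Of these 8, ASNS and ALDH1L2 passed the filter only through the Huh7-labelled libraries. Both lay under 1 FPKM in every HepG2-labelled library, where a change on this scale is held near 0, so their differences largely restate the Huh7-labelled rise. The largest differences were those of PSAT1 (-2.45 ± 0.23, limma adjusted p = 5.9e-05), PSPH (-1.81 ± 0.15), ASNS (-1.81 ± 0.16) and PHGDH (-1.04 ± 0.10). MTHFD2 differed by -0.66 ± 0.18 (limma adjusted p = 0.0179). The differences of ALDH1L2 (-0.84, limma adjusted p = 0.0383), MTHFD1 (-0.48, 0.0273) and MTHFD1L (-0.41, 0.0263) were close to the threshold. Without any filter on low values these 3 were lost, leaving 5 enzymes. The ALDH1L2 call was lost on leaving out any 1 library other than the treated Huh7-labelled ones (limma adjusted p up to 0.0825), and its difference was -0.55 without treated Huh7-labelled library 3. The MTHFD1 call was lost without any 1 untreated Huh7-labelled library, untreated HepG2-labelled library 1 or 2, or treated HepG2-labelled library 1 or 3 (up to 0.0602, limma adjusted p). That of MTHFD1L was lost without untreated Huh7-labelled library 2 or 3, untreated HepG2-labelled library 2 or 3, or treated HepG2-labelled library 2 (up to 0.063, limma adjusted p). The effect on SHMT2 differed by 0.01, with a 95% confidence interval of -0.17 to 0.18. That on SHMT1 differed by -0.50 (interval -0.92 to -0.08, limma adjusted p = 0.0759), and by -0.70 (limma adjusted p = 6.72e-05) when leaving out treated Huh7-labelled library 3.

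**Figure D3:**
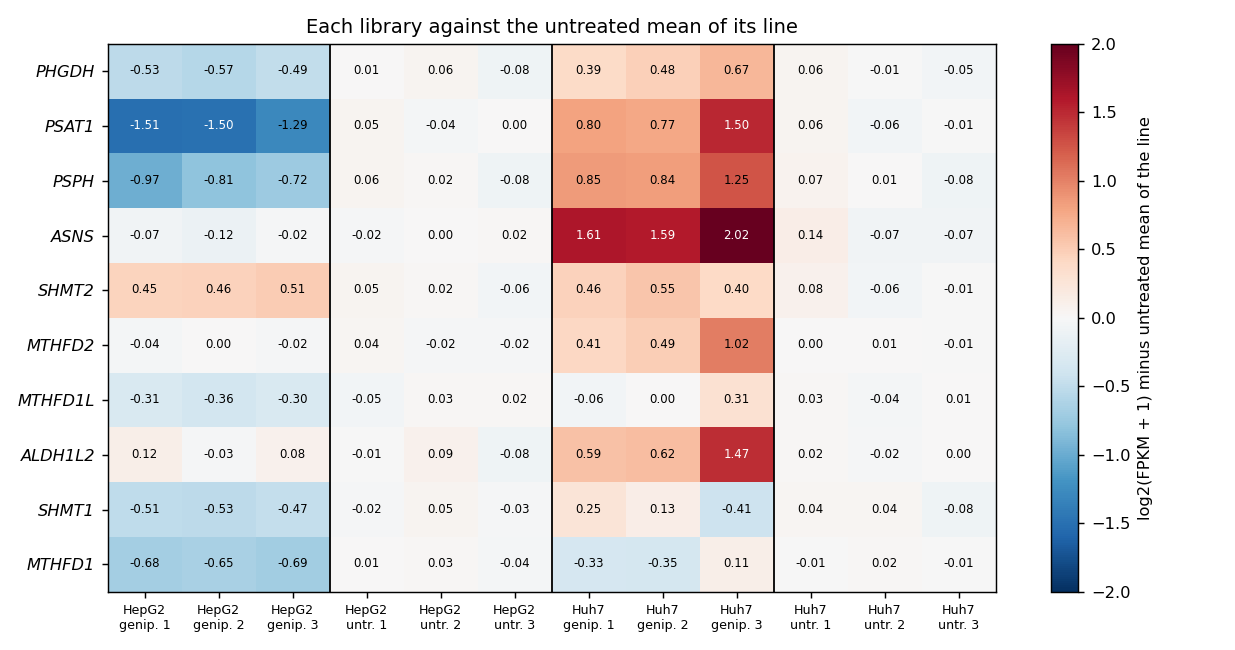
Deviation of each enzyme in every library from the untreated mean of its line, in log2(FPKM + 1), with treated libraries left of untreated ones in each line. Treated Huh7-labelled library 3 has the highest values for PSAT1 (1.5), ALDH1L2 (1.47) and MTHFD2 (1.02) and the opposite sign to the other 2 for SHMT1 and MTHFD1.

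Library by library, the median deviation of the 10 enzymes from the untreated mean of the line was -0.41, -0.45 and -0.39 in treated HepG2-labelled cells, against 0.01, 0.02 and -0.03 in untreated ones. It was 0.43, 0.52 and 0.84 in treated Huh7-labelled cells, against 0.05, -0.01 and -0.01 in untreated ones. Over all tested genes the same median was between -0.01 and 0.00 in every library. The deposited values are in effect relative to the median gene, so that median is no contrast for the enzymes. On the TPM scale the median change over all tested genes was 0.06 in each line. Without treated Huh7-labelled library 3, 8 enzymes rose and 1 fell in the Huh7-labelled line. Calls became more frequent over all genes too, to 22.6% higher and 23.5% lower there, 46.1% in either direction. In the HepG2-labelled line the enzymes' count stayed at 1 and 6, beside 26.5% of tested genes higher and 27.3% lower, 53.8% in either direction. A lower effect in HepG2-labelled cells was then called for 9 enzymes, beside 20.2% of tested genes lower, 19.6% higher and 39.8% in either direction.

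Most of these transcripts differed between the untreated lines, as did most of all tested genes. In untreated HepG2-labelled against untreated Huh7-labelled cells, 3 enzymes were higher and 6 lower, against 36.1% of tested genes higher, 35.8% lower and 71.8% in either direction. The 6 include ASNS and ALDH1L2, which passed the filter on low values only through the Huh7-labelled libraries. PHGDH averaged 17.7 ± 0.916 FPKM in HepG2-labelled and 67.9 ± 2.49 FPKM in Huh7-labelled cells (SD, n = 3 each), a difference of -1.89 (limma adjusted p = 8.13e-10). ALDH1L2 averaged 0.290 ± 0.0765 FPKM in HepG2-labelled and 10 ± 0.167 FPKM in Huh7-labelled cells (SD, n = 3 each), the widest gap of the 10 at -3.10. PSAT1 (-0.89), ASNS (-0.84) and MTHFD2 (-0.73) were lower too. In HepG2-labelled cells ALDH1L2 and ASNS lie under 1 FPKM, where this scale understates a difference, and with a pseudocount of 0.1 FPKM they differed by -4.72 and -1.91. SHMT1 was higher, at 18.7 ± 0.598 FPKM in HepG2-labelled and 7.62 ± 0.395 FPKM in Huh7-labelled cells (SD, n = 3 each), a difference of 1.19 (limma adjusted p = 1.05e-05). SHMT2 was higher by 0.66.

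The remaining differences were small. PSPH was higher by 0.29 (limma adjusted p = 0.0324), a call that was lost on leaving out untreated Huh7-labelled library 2 or 3 or untreated HepG2-labelled library 1 or 2, with adjusted p-values up to 0.103. With PSPHP1 fragments added it was 0.56, and with ASNSP1 fragments added ASNS was lower by 1.37. MTHFD1 was lower by 0.29, and this call was lost without untreated Huh7-labelled library 2 or untreated HepG2-labelled library 3 (limma adjusted p of 0.0561 and 0.0635). MTHFD1L did not differ detectably (-0.02, interval -0.20 to 0.16). On the TPM scale, where every library has the same sum, the median of all genes shifted by -0.27 between the lines, and PSPH then differed by 0.03 and MTHFD1L by -0.30 (limma adjusted p = 0.00872). On that scale SHMT2 differed by 0.38, MTHFD1 by -0.57 and ASNS by -1.70. The main values have a median of -0.01 over all genes and so are relative to the median gene.

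The order of the levels, in FPKM per the gene length of the deposited table, also differed. That length is not the length of the transcript in use, which was not tested, and it matters to the order. PHGDH has 9217 and PSAT1 2188 bases in the table, and in untreated Huh7-labelled cells PHGDH had 11271, 10477 and 10021 fragments and PSAT1 5622, 5029 and 5129, the reverse of their order in FPKM. In treated HepG2-labelled cells SHMT2 was highest at a mean of 131 FPKM, followed by MTHFD2 (28.2 FPKM) and PSAT1 (27.6 FPKM), whose libraries overlapped. In untreated HepG2-labelled cells SHMT2 led at 94.1 FPKM, and PSAT1 at 76.0 FPKM was next without overlap. In both Huh7-labelled groups the order began PSAT1, PHGDH, SHMT2, MTHFD2. SHMT2 and MTHFD2 overlapped in treated Huh7-labelled cells, at 82.5 and 76.8 FPKM, while no neighbours overlapped in untreated Huh7-labelled cells. On its own fragments ASNS was last in all 4 groups, overlapping with SHMT1 in treated Huh7-labelled cells and with ALDH1L2 in untreated HepG2-labelled cells. With ASNSP1 fragments added, ASNS would be at 10.7, 11 and 18.9 FPKM in treated Huh7-labelled cells, above SHMT1 in each of those libraries, so its place there is uncertain.

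Ratios within a library compare paired enzymes directly. These pairs were chosen after the values were seen and are therefore given without a test. The ratio of mitochondrial MTHFD2 to cytosolic MTHFD1 was 1.62 ± 0.0218 in treated and 1.01 ± 0.0306 in untreated HepG2-labelled cells, and 2.48 ± 0.141 in treated and 1.38 ± 0.00846 in untreated Huh7-labelled cells (SD). The ratio of SHMT2 to SHMT1 was 10.2 ± 0.116 in treated and 5.03 ± 0.204 in untreated HepG2-labelled cells, and 11.2 ± 2.83 in treated and 7.80 ± 0.500 in untreated Huh7-labelled cells (SD). Treated Huh7-labelled library 3, where SHMT1 was low, reached 14.3. The lowest treated Huh7-labelled ratio was 8.85, against at most 8.2 in untreated ones. All treated libraries had the higher mitochondrial share in both pairs and both lines. For the MTHFD pair, MTHFD1 fell in HepG2-labelled cells and MTHFD2 rose in Huh7-labelled cells. In treated Huh7-labelled libraries 1 and 2 MTHFD1 also deviated by -0.33 and -0.35 from its untreated mean on the log2(FPKM + 1) scale, while MTHFD2 deviated by 0.41 and 0.49 from its own.

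The ratio within the serine branch went different ways. PSAT1 over PHGDH was 2.32 ± 0.157 in treated and 4.31 ± 0.292 in untreated HepG2-labelled cells, and 3.02 ± 0.618 in treated and 2.09 ± 0.0674 in untreated Huh7-labelled cells (SD). Treated Huh7-labelled library 3 was highest at 3.73, and the lowest treated ratio of that line was 2.56, against at most 2.16 untreated. PSAT1 over PSPH was 3.29 ± 0.203 in treated and 4.83 ± 0.264 in untreated HepG2-labelled cells (SD). In Huh7-labelled cells it was 11.2 ± 1.38 in treated and 11.2 ± 0.599 in untreated libraries (SD). The equal means rest on treated library 3, at 12.8, while the other treated libraries lay below the untreated range of 10.7 to 11.9.

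**Figure D4:**
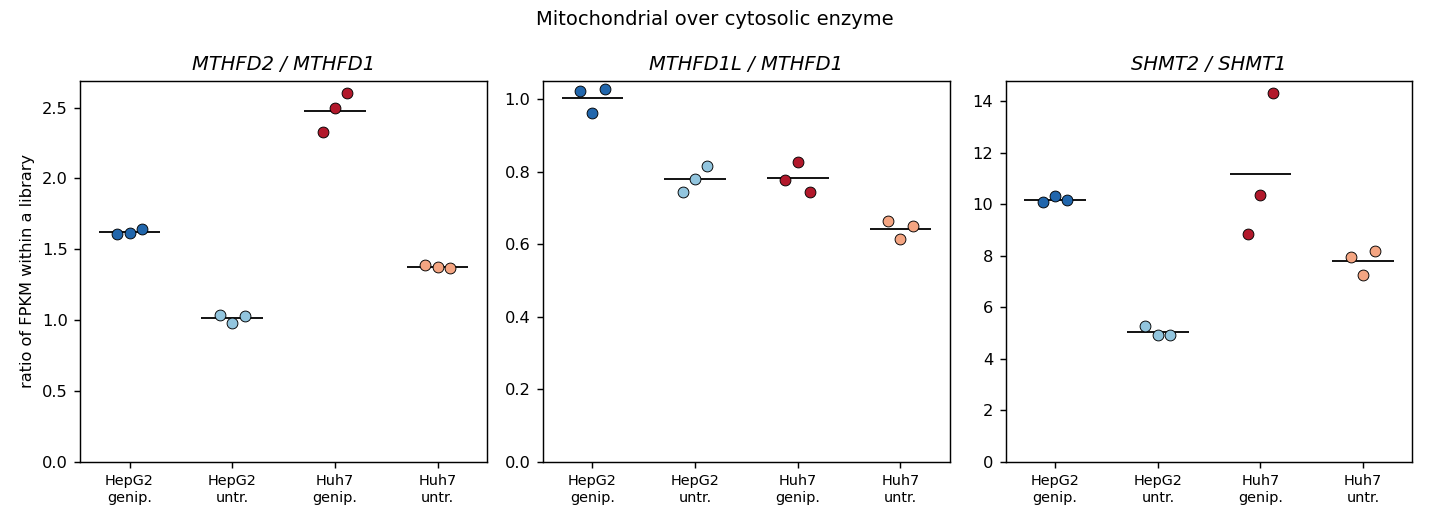
Ratio of the FPKM of a mitochondrial enzyme to that of its cytosolic counterpart in each library (linear axis from 0, points are libraries, bars are means, n = 3). MTHFD2 over MTHFD1 averaged 1.62 in treated and 1.01 in untreated HepG2-labelled cells, and 2.48 in treated and 1.38 in untreated Huh7-labelled cells.

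Promoter sequence was looked at because several of these enzymes moved together and are known ATF4 targets. RefSeq windows from 250 bases before to 50 after a gene start (build GRCh38.p14) were used for 7 of the 10 enzymes, all but PSPH, SHMT2 and ALDH1L2, 11 windows in all. The motifs were TGATGNAA, the core of the amino acid response element that ATF4 dimers bind, CACGTG, the E-box bound by MYC, and CCAAT, the box bound by NF-Y, searched on both strands, and none of the 3 motifs holds another. TGATGNAA was found in 3.62%, CACGTG in 7.26% and CCAAT in 34.6% of 35116 windows of the same length. The 2 enzymes with a TGATGNAA match, ASNS (minus strand, chr7:97872419-97872538) and MTHFD1L (plus strand, chr6:150866347-150866374), are printed 5′ to 3′ with the match in capitals. Below them PSAT1 (plus strand, chr9:78296995-78297114) and PHGDH (plus strand, chr1:119711804-119711923), which are the serine synthesis enzymes with a window and had no such match, are printed with CCAAT in capitals.
ASNS: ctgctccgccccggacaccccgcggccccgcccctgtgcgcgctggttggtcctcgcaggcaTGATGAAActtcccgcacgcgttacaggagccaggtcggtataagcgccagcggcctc
MTHFD1L: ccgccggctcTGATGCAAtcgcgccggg
PSAT1: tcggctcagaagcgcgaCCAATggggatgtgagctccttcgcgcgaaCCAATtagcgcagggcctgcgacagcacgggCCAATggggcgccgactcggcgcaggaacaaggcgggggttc
PHGDH: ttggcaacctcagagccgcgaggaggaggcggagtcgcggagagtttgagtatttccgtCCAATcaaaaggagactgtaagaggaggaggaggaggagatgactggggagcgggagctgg

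The ASNS match began 68 bases before the start, and ASNS was the enzyme with the largest rise in Huh7-labelled cells. The MTHFD1L match stood in 3 of its 4 windows, and MTHFD1L did not change detectably in that line. PSAT1 had 3 CCAAT boxes, beginning 113, 83 and 52 bases before the start, and PHGDH had 1 at 71 bases. CCAAT was not particular to them, since 6 of the 7 enzymes had it in a window. MTHFD1, MTHFD2 and SHMT1 had 2 each and MTHFD1L 1, and ASNS had none. CACGTG was found in the windows of MTHFD1, 15 bases before the start, and of MTHFD1L. A match describes these letters only, and its absence says nothing of binding elsewhere.

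For 4 enzymes, the 3 genes nearest in response were found among 12150 protein-coding genes that passed the filter, by the root mean square difference over the 12 libraries in log2(FPKM + 1) after subtracting the untreated mean of each line. PHGDH was nearest to XPOT (0.06), PYCR1 (0.08) and FGF2 (0.09), where the median gene was at 0.43. PYCR1, an enzyme of proline synthesis, averaged 26.1 FPKM in treated and 36.5 FPKM in untreated HepG2-labelled cells, and 76.3 FPKM in treated and 55.5 FPKM in untreated Huh7-labelled cells. PSAT1 was nearest to FAM129A (0.26), MARS (0.27) and its own pathway neighbour PSPH (0.31), against a median of 0.92. ASNS was nearest to GADD45A (0.08), AKNA (0.17) and SH2D3C (0.19), and MTHFD2 to ARHGEF2 (0.05), BARHL2 (0.07) and DOCK3 (0.07). In HepG2-labelled cells BARHL2 was at 0, DOCK3 averaged at most 0.144 FPKM, AKNA at most 0.175 FPKM and SH2D3C at most 0.254 FPKM. These 4 genes have hardly any level to change there, and their likeness rests on the Huh7-labelled libraries. GADD45A, a stress-induced growth arrest gene, averaged 6.23 FPKM in treated and 6.66 FPKM in untreated HepG2-labelled cells, and 55.2 FPKM in treated and 16.6 FPKM in untreated Huh7-labelled cells.

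The genes around the 10 enzymes did not share a direction. Of 64 genes in 6 lists, 54 were tested, and 10 rose and 21 fell in HepG2-labelled cells, while 14 rose and 15 fell in Huh7-labelled cells. The counts of the lists stand beside 21% of all tested genes higher and 21.5% lower in HepG2-labelled cells, and 16.4% higher and 18.1% lower in Huh7-labelled cells, and several lists are near those shares. Their median change was -0.19 in HepG2-labelled and -0.10 in Huh7-labelled cells, on values that are in effect relative to the median gene. The median of the nucleotide synthesis list was -0.37 in HepG2-labelled and -0.28 in Huh7-labelled cells, and that of the serine, glycine and asparagine list was -0.24 in HepG2-labelled and 0.45 in Huh7-labelled cells. The regulators list holds the stress and growth factors known to act on these genes, and 2 rose and 1 fell of 10 in HepG2-labelled cells, with 5 and 2 in Huh7-labelled cells. ATF4 transcript averaged 84.8 ± 3.24 FPKM in treated and 75.4 ± 2.47 FPKM in untreated HepG2-labelled cells (SD, limma adjusted p = 0.101, n = 3 each). It averaged 280 ± 32 FPKM in treated and 246 ± 10.3 FPKM in untreated Huh7-labelled cells (SD, limma adjusted p = 0.089, n = 3 each). ATF4 passed the threshold on the TPM scale, with limma adjusted p-values of 0.0193 in HepG2-labelled and 0.0161 in Huh7-labelled cells. It also passed in HepG2-labelled cells fitted alone (limma adjusted p = 0.017) or without treated Huh7-labelled library 3 (0.0116), and in Huh7-labelled cells with voom (0.0111) or without treated library 1 (0.0209). The ATF4 change in Huh7-labelled cells was 0.18 with all libraries and 0.09 without treated library 3 (limma adjusted p = 0.168).

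Several listed genes are known to act downstream of ATF4. DDIT3, the stress factor CHOP, rose in both lines, by 0.83 in HepG2-labelled and 2.26 in Huh7-labelled cells. ATF3 had 4.33, 3.55 and 4.17 FPKM in treated against 3.44, 3.16 and 4.30 FPKM in untreated HepG2-labelled cells, and 75.6, 92.8 and 195 FPKM in treated against 11.8, 10 and 9.94 FPKM in untreated Huh7-labelled cells. Its rise in the Huh7-labelled line was 3.28, and 2.87 without treated library 3. TRIB3, a pseudokinase that restrains ATF4, rose by 1.73 and CEBPB by 1.47 in Huh7-labelled cells. Without treated library 3 of that line both rises were 1.38. In HepG2-labelled cells TRIB3 differed by -0.41 (limma adjusted p = 0.177), which was called in that line alone (0.00384) and without treated Huh7-labelled library 3 (0.00254). CEBPB rose by 0.30 in HepG2-labelled cells (limma adjusted p = 0.0241), a call lost without treated library 1 or 3 or untreated library 1 or 3 of that line, with adjusted p-values up to 0.083. It was also lost with no filter (limma adjusted p = 0.055). EIF2AK4, the kinase that senses uncharged tRNA, fell by 0.22 in HepG2-labelled cells (limma adjusted p = 0.0256) and by 0.25 in Huh7-labelled cells (limma adjusted p = 0.0188). The HepG2-labelled call was lost without treated library 1 or 2 or untreated library 1 or 2 of that line, the Huh7-labelled call without untreated library 2 or 3 of its line, with voom or fitted alone, and both were lost on the TPM scale. MYC averaged 125 ± 6.68 FPKM in treated and 113 ± 5.30 FPKM in untreated HepG2-labelled cells (SD, limma adjusted p = 0.376, n = 3 each), and it fell by 0.65 in Huh7-labelled cells (limma adjusted p = 0.00135). For NFE2L2, the regulator of antioxidant genes, the difference was 0.15 in HepG2-labelled (limma adjusted p = 0.328) and 0.01 in Huh7-labelled cells (limma adjusted p = 0.95). Without treated Huh7-labelled library 3 both were called, at 0.15 in HepG2-labelled (limma adjusted p = 0.0142) and -0.15 in Huh7-labelled cells (limma adjusted p = 0.0282), and the HepG2-labelled one also when that line was fitted alone (0.0409).

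**Figure D5:**
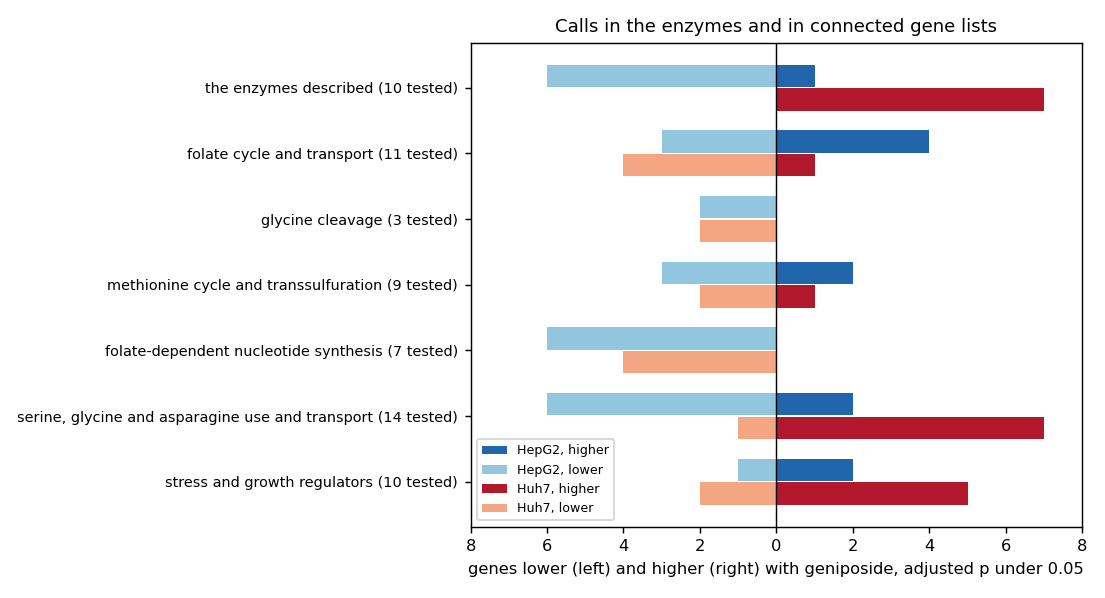
Number of genes called lower (bars to the left) and higher (bars to the right) with geniposide in HepG2-labelled and Huh7-labelled cells, for the 10 enzymes and the 6 connected lists, at a limma adjusted p under 0.05. The folate-dependent nucleotide synthesis list has 6 lower and none higher in HepG2-labelled cells, and 4 lower and none higher in Huh7-labelled cells.

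Among genes that use or carry serine, glycine and asparagine, more fell than rose in HepG2-labelled cells, and more rose than fell in Huh7-labelled cells. Of 14 tested, 2 rose and 6 fell in HepG2-labelled cells (all genes 21% and 21.5%), and 7 rose and 1 fell in Huh7-labelled cells (all genes 16.4% and 18.1%). SLC6A9, a glycine transporter, fell by 0.29 in HepG2-labelled and rose by 1.14 in Huh7-labelled cells. SLC1A4, a carrier of neutral amino acids such as serine, had 9.79, 10.9 and 21.0 FPKM in treated and 4.88, 4.38 and 3.83 FPKM in untreated Huh7-labelled cells, a rise of 1.40. Without treated library 3 the SLC1A4 rise was 1.08. SRR, the serine racemase, rose by 0.58 in that line. SFXN1, the carrier that brings serine into mitochondria, fell in both lines, by 0.31 in HepG2-labelled and 0.34 in Huh7-labelled cells. In HepG2-labelled cells SFXN3 rose by 0.71 and GOT2, the mitochondrial aspartate transaminase, fell by 0.87.

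The purine and thymidylate list holds 7 enzymes that consume one-carbon units, and all were tested. Of these 6 fell in HepG2-labelled and 4 in Huh7-labelled cells, beside 21.5% and 18.1% of all tested genes lower, with none higher by limma, at an unadjusted limma p under 0.05 or by voom. PFAS, an enzyme of purine synthesis, averaged 13.5 ± 0.215 FPKM in treated and 34.1 ± 0.483 FPKM in untreated HepG2-labelled cells (SD, n = 3 each), a fall of 1.28, and it fell by 0.39 in Huh7-labelled cells. PAICS fell by 0.31 in HepG2-labelled and 0.35 in Huh7-labelled cells. GART fell by 0.76 and TYMS, the thymidylate synthase, by 0.48 in HepG2-labelled cells. In Huh7-labelled cells ATIC fell by 0.28, and ADSL by 0.31 (limma adjusted p = 0.0406). Neither was called on the TPM scale (limma adjusted p of 0.051 for ATIC and 0.0802 for ADSL) or when that line was fitted alone (0.0717 and 0.0997), and ADSL also missed with a pseudocount of 0.1, with no filter and with the replicate block. The ADSL call was lost on leaving out any of 7 libraries, namely untreated Huh7-labelled 2 and 3, treated Huh7-labelled 1 and 2, untreated HepG2-labelled 2, and treated HepG2-labelled 1 and 2.

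Folate uptake and turnover were mixed. Of 11 tested genes, 4 rose and 3 fell in HepG2-labelled cells, and 1 rose and 4 fell in Huh7-labelled cells, beside 42.5% and 34.5% of all tested genes called in either direction. SLC19A1, the reduced folate carrier, fell by 0.48 in HepG2-labelled and 0.45 in Huh7-labelled cells. GGH, which trims folate polyglutamates, rose by 0.56 in HepG2-labelled and fell by 0.30 in Huh7-labelled cells. FPGS, which adds those glutamates, fell by 0.90 in HepG2-labelled cells. Its fall of 0.25 in Huh7-labelled cells (limma adjusted p = 0.0291) was lost without any 1 of the untreated Huh7-labelled libraries and was 0.15 in size without treated library 3. That call was also lost with no filter, on the TPM scale, with voom and when that line was fitted alone (limma adjusted p up to 0.131). MTFMT, which formylates the mitochondrial initiator tRNA, fell by 0.29 in Huh7-labelled cells. It just missed the threshold when that line was fitted alone (limma adjusted p = 0.0505).

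In the glycine cleavage system, which takes one-carbon units from glycine, 3 of 4 genes were tested and 2 fell in each line. Over all tested genes 21.5% fell in HepG2-labelled and 18.1% in Huh7-labelled cells. DLD fell by 0.63 in HepG2-labelled and 0.54 in Huh7-labelled cells, and GCSH fell by 0.48 in HepG2-labelled and 0.52 in Huh7-labelled cells. Of 9 tested genes of the methionine cycle and transsulfuration, 2 rose and 3 fell in HepG2-labelled cells, and 1 rose and 2 fell in Huh7-labelled cells. Calls in either direction made up 42.5% of all tested genes in HepG2-labelled and 34.5% in Huh7-labelled cells. CTH, which splits cystathionine to cysteine, had 8.5, 9.94 and 9.34 FPKM in treated against 13, 12.4 and 12.7 FPKM in untreated HepG2-labelled cells, and 47.3, 48.4 and 140 FPKM in treated against 17.0, 15.3 and 16.7 FPKM in untreated Huh7-labelled cells. It rose by 2.01 in the Huh7-labelled line (limma adjusted p = 0.000851), and by 1.5 without the high treated library 3 (limma adjusted p = 2.9e-07). In the HepG2-labelled line the groups were apart and the difference was -0.42 (limma adjusted p = 0.333), which was called when that line was fitted alone (0.00296) and without treated Huh7-labelled library 3 (0.000131). MAT2A, which makes S-adenosylmethionine, fell by 0.85 and its partner MAT2B by 0.29 in Huh7-labelled cells. The MAT2B call was lost without untreated library 1 (limma adjusted p = 0.0504) and when that line was fitted alone (0.073). In HepG2-labelled cells AHCY fell by 0.55 and MTRR by 0.50, and MTR, the methionine synthase that takes carbon from folate, rose by 0.30, a call lost without treated library 1 (limma adjusted p = 0.0582). CBS fell by 1.02 in HepG2-labelled cells (limma adjusted p = 0.0266), and that call was lost without untreated library 1 or any 1 treated library, with adjusted p-values up to 0.107. It was also lost with no filter (limma adjusted p = 0.0676) and with voom (0.0552).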

How the data were processed

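Poly(A) RNA of 12 samples was sequenced. Per the submitters' processing notes CASAVA, fastp and build hg38 were used, while versions, aligner and counter were not given in the sources used here. Libraries were primed at random and carry no strand mark, per the labels' protocols, so a gene and its antisense partner cannot be told apart. The deposited values are FPKM, computed by the authors per kilobase of the gene length their table gives. Multiplied by gene length, 100% of values were whole numbers of fragments to within 0.05 once divided by what 1 fragment is worth in that library, and these fragments were used as depth. The authors' scaling total was 0.895 to 1.17 times the recovered sum. A count of 0 allows 3 fragments, 0.161 to 0.212 FPKM in a gene of 1 kb, for counting error only.

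The test was limma's (version 3.58.1, R 4.3.3), run on log2(FPKM + 1) in a single model of 4 group means over 12 samples (8 residual degrees of freedom, intensity trend, two-sided, Benjamini-Hochberg adjustment over all tested genes). Genes needed 1 FPKM in at least 3 samples, which left 15518 of 58735, all 10 enzymes among them. The fit was tested on simulated data that had the same spread for all genes and no outlying library. That test therefore does not cover a library such as treated Huh7-labelled library 3. The enzymes and the 6 lists were chosen with earlier results of these data known. The text names all 10 enzymes, ATF4, MYC and NFE2L2, and up to 4 called genes per list and line with the smallest p, apart from 1 that is not reported here. Alternatives were a pseudocount of 0.1, no filter, TPM and median-of-ratios scaling, each line alone, voom on recovered fragments, a replicate block, leaving out each library, and pseudogene fragments added. No 2 libraries agreed within sampling noise, and 0 data columns were left without a sample.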

Additional observations from a re-analysis of the deposited data

Results flagged for a closer look

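The effect of geniposide differed between the lines, by the test of the difference itself (HepG2-labelled minus Huh7-labelled change, limma adjusted p under 0.05), for 8 of the 10 enzymes, where 27.8% of all tested genes differed and 13.7% were lower. ALDH1L2, MTHFD1 and MTHFD1L were lost without the filter on low values, leaving 5, and the differences of ASNS and ALDH1L2 rest on their Huh7-labelled rise, since both were under 1 FPKM in HepG2-labelled cells. The differences were -1.04 for PHGDH, -2.45 for PSAT1, -1.81 for PSPH, -1.81 for ASNS, -0.66 for MTHFD2, -0.41 for MTHFD1L, -0.84 for ALDH1L2 and -0.48 for MTHFD1. Among the named genes of the connected lists, the effect was lower in HepG2-labelled cells for the stress genes ATF3 (-3.16), TRIB3 (-2.14), DDIT3 (-1.43) and CEBPB (-1.17). It was lower for CTH (-2.43) and AHCY (-0.57), for SLC1A4 (-2.01), SLC6A9 (-1.42), GOT2 (-0.86) and SRR (-0.48). The same held for the folate and nucleotide genes FPGS (-0.66), PFAS (-0.89), GART (-0.82) and TYMS (-0.31). It was higher in HepG2-labelled cells for GGH (0.85), SFXN3 (0.90), MYC (0.79), MAT2A (0.72) and MTR (0.40). Several of these differences changed in size without treated Huh7-labelled library 3. They were then -2.76 for ATF3, -1.92 for CTH, -1.79 for TRIB3 and -1.69 for SLC1A4, and 0.95 for MYC. Without the filter the differences of SFXN3 (limma adjusted p = 0.0506), MTR, SRR and TYMS were lost. The TYMS difference was lost without any 1 untreated library or any 1 treated HepG2-labelled library. That of MTR was lost without any 1 untreated Huh7-labelled library, untreated HepG2-labelled library 2 or 3, or treated HepG2-labelled library 1 or 2. That of SRR was lost without untreated Huh7-labelled library 3, untreated HepG2-labelled library 2 or 3, or treated HepG2-labelled library 2 or 3.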

How the results depend on the processing

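In HepG2-labelled cells all 7 enzyme calls kept their side of the threshold under every alternative run, and in Huh7-labelled cells the exceptions were those of the single-line fit and of treated library 3. Fitted alone, the Huh7-labelled line gave 18 called list genes and 3266 called genes, against 29 and 5357. Without any filter 5 enzymes had a lower effect in HepG2-labelled cells, against 8. Leaving out 1 library at a time gave 0 to 1 enzymes lower in Huh7-labelled cells, and 5 to 9 with a lower effect in HepG2-labelled cells, the 9 without treated Huh7-labelled library 3 and the 5 without untreated Huh7-labelled library 2 or 3 or untreated HepG2-labelled library 2. Without that library the Huh7-labelled changes of SHMT1 and NFE2L2 turned their sign, as did the uncalled one of MTHFD1L (-0.03). Over all single omissions SHMT1 ranged between -0.14 and 0.19 and NFE2L2 between -0.15 and 0.11. With voom the difference for ASNS was -2.82, that for SHMT1 -0.59 (limma adjusted p = 0.047) and that for ALDH1L2 -0.79 (limma adjusted p = 0.5), and untreated ALDH1L2 and ASNS differed between the lines by -5.41 and -2.52. TPM scaling moved the share of calls that were higher to 58% in HepG2-labelled and 61.6% in Huh7-labelled cells, against 49.3% and 47.5%, and to 36.6% between the untreated lines, against 50.2%; voom gave 40.1% for the difference, against 50.8%. With the replicate number as a block, 6410 genes were called in HepG2-labelled and 5127 in Huh7-labelled cells, 4007 for the difference and 11111 between the untreated lines, and no enzyme call changed. Same-numbered treated and untreated libraries did not deviate together (correlations of -0.0615 to 0.0186 in HepG2-labelled and -0.000956 to 0.0201 in Huh7-labelled cells). With 3 libraries per group, this does not settle whether same-numbered samples were handled together. Depth limits ASNS and ALDH1L2 in HepG2-labelled cells, at 10 to 18 and 27 to 50 fragments per library.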
